A study of Rattus norvegicus with 6 samples.

Results

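Bile acid synthesis and its feedback were followed through 10 genes in the livers of rats with hepatic fibrosis and of control rats. The genes were Cyp7a1, Cyp7b1, Cyp8b1, Cyp27a1, Hsd3b7, Akr1d1, Amacr, Slc27a5, Baat and Nr0b2, and they were taken by symbol from a table of 19616 genes, which held each of the 10 once. The FL group was 3 male SD rats (FL2, FL5 and FL12) injected intraperitoneally with CCl4, a solvent that injures hepatocytes, mixed in equal parts with olive oil, at 2 mL/kg on 2 days of each week for 5 weeks. The CL group was 3 male SD rats (CL5, CL6 and CL7) that received olive oil alone in the same volume and on the same schedule. No transgene or mutation is named for either group, the age of the rats is not given in the sources used here, and each library came from the liver of 1 rat.

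The liver turns cholesterol into bile acids along a classic route, opened by the rate-limiting enzyme Cyp7a1, and along an alternative route, opened by Cyp27a1 and continued by Cyp7b1. Other enzymes then rework the sterol ring and shorten the side chain, and the finished acid is joined to taurine or glycine before it is secreted into bile. Bile acids that return to the liver hold their own synthesis down through the nuclear receptor FXR (gene Nr1h4) and the repressor it induces, SHP (gene Nr0b2), and a hormone of the FGF family from the ileum acts on hepatocytes to the same end through the receptor Fgfr4 and its partner Klb.

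Expression is given in FPKM, fragments per kilobase of transcript scaled to the mapped fragments of each library, so levels can be set side by side between genes. Total read counts were not used here. The commonest value above 0 among the U6 small nuclear RNA genes, which are of similar length, was 0.21 FPKM in CL5, 0.32 in CL6, 0.25 in CL7, 0.31 in FL2, 0.28 in FL5 and 0.31 in FL12. Taken as the worth of 1 read, these values put the relative depth at 1 in CL5, 0.656 in CL6, 0.84 in CL7, 0.677 in FL2, 0.75 in FL5 and 0.677 in FL12, so that CL5 was the deepest library. Only relative depth follows from these steps. The error of the limma fits below starts from the spread between the 3 rats of a group. Limma then draws it towards the spread of genes of similar mean level.

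Each of the 10 genes passed the filter of a mean of at least 0.1 FPKM, as did 14864 genes in all. A gene was called upregulated or downregulated when its adjusted p was under 0.05 and its fold change at least 2. By this rule 1 of the 10 genes, Cyp7a1, was upregulated in the FL group, against 9.29% of all genes tested, and 0 were downregulated, against 0.935% (limma). Without the limit on the fold change, 1 gene passed upwards (16.9% of all genes) and 1, Baat, passed downwards (1.94% of all genes). At an unadjusted p under 0.05 there were 4 genes higher (31.5% of all genes) and 1 lower (4.04% of all genes) in the FL group. The groups did not overlap for 3 genes that were higher in the FL rats (Cyp7a1, Cyp7b1 and Nr0b2), where 35.7% of all genes were separated this way, and for 1 that was lower (Baat), where 4.78% of all genes were. With 8 fold changes above 0 and 2 below, the median log2 fold change was 0.47 over the 10 genes and 0.29 over all genes tested. Under median scaling the 10 genes had a median of 0.25, with 7 above 0 and 3 below.

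**Figure D1:**
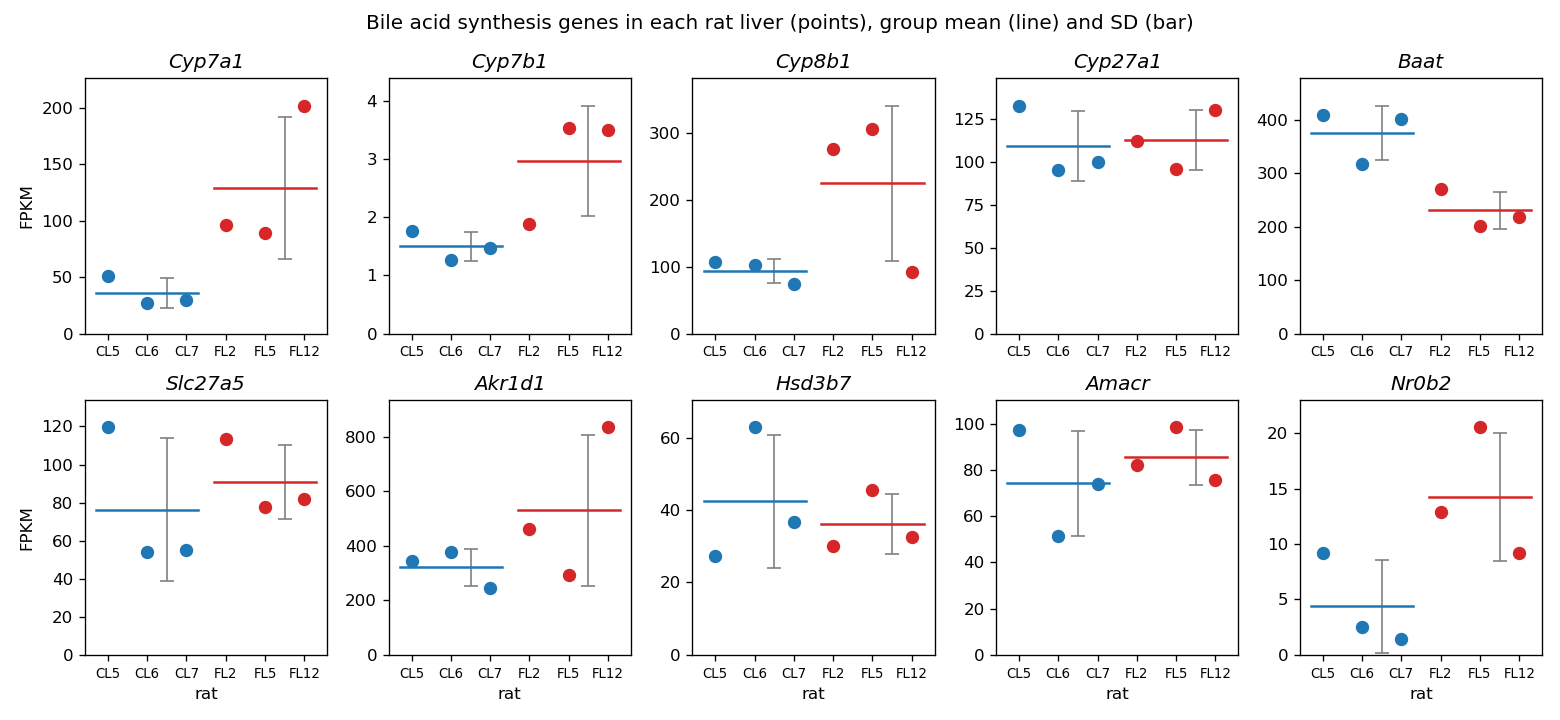
FPKM (vertical axis, from 0) of each of the 10 genes in CL5, CL6 and CL7 (blue) and in FL2, FL5 and FL12 (red), with the group mean as a line and the SD over 3 rats as a grey bar. The FL rats lie above the CL rats for Cyp7a1, Cyp7b1 and Nr0b2 and below them for Baat, and the other 6 genes overlap between the groups.

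Cyp7a1 (ENSRNOG00000009488, chromosome 5) read 51.1 FPKM in CL5, 27.0 in CL6 and 29.4 in CL7, and 96.3 in FL2, 89.2 in FL5 and 202 in FL12. The lowest FL rat stood above the highest CL rat, and FL12 was the highest of the 6 livers. The mean was 35.8 ± 13.3 FPKM for CL and 129 ± 63.0 FPKM for FL (SD, n = 3), and Cyp7a1 rose by a log2 fold change of 1.80 (standard error 0.35, 95% interval 0.99 to 2.61, adjusted p = 0.0134 from limma), which is 3.49-fold. Relative to the median of all genes tested the increase was 1.51 on the log2 scale. The adjusted p ran from 0.0109 to 0.062 over 15 alternatives, and the call was lost without a filter on low values (0.062) and without CL7 (0.0573).

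Cyp8b1 (ENSRNOG00000019481, chromosome 8) sends the intermediates of the classic route towards cholic acid and so sets the share of cholic acid in the pool. It read 107 FPKM in CL5, 102 in CL6 and 73.6 in CL7, and 277 in FL2, 306 in FL5 and 92.3 in FL12. FL2 and FL5 were above every CL rat, whereas FL12 lay within the CL range, so the groups overlapped. The log2 fold change of 1.09 (standard error 0.43, 95% interval 0.11 to 2.08) did not pass the test (adjusted p = 0.109 from limma), and without FL12 it was 1.64 with an adjusted p of 0.0108, in a range of 0.0108 to 0.286 over the alternatives. FL12 was thus the liver with the most Cyp7a1 and, among the FL rats, the least Cyp8b1.

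On the alternative route, Cyp27a1 (ENSRNOG00000017188, chromosome 9), the mitochondrial enzyme that oxidizes the sterol side chain, read 133 FPKM in CL5, 95.02 in CL6 and 99.7 in CL7, and 112 in FL2, 95.7 in FL5 and 130 in FL12. The FL rats lay inside the range of the CL rats. The log2 fold change was 0.05 (standard error 0.18, 95% interval -0.36 to 0.47, adjusted p = 0.853 from limma), and its sign turned under median scaling (-0.17). Cyp7b1 (ENSRNOG00000009730, chromosome 2), which hydroxylates the oxysterols that Cyp27a1 makes, had the lowest mean of the 10 genes in each group. It read 1.77 FPKM in CL5, 1.26 in CL6 and 1.47 in CL7, and 1.88 in FL2, 3.53 in FL5 and 3.51 in FL12. The groups did not overlap, but FL2 was little above CL5, while FL5 and FL12 were almost equal. The log2 fold change of Cyp7b1 was 0.90 (standard error 0.27, 95% interval 0.28 to 1.52, adjusted p = 0.0518 from limma), and without FL2 it was 1.19 with an adjusted p of 0.00863, in a range of 0.00863 to 0.24 over the alternatives. The adjusted p was also under 0.05, short of 2-fold, with a mean FPKM of at least 1 as the filter (0.0452) and with a robust prior (0.049). After quantile normalization the log2 fold change was 0.49.

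Hsd3b7 and Akr1d1 act in turn on the sterol ring, on which both routes depend. Hsd3b7 (ENSRNOG00000019080, chromosome 1) read 27.4 FPKM in CL5, 62.9 in CL6 and 36.8 in CL7, and 30.0 in FL2, 45.5 in FL5 and 32.7 in FL12. The FL rats again lay within the CL range, which CL6 widened. Akr1d1 (ENSRNOG00000013004, chromosome 4), the reductase that gives bile acids their bent ring, read 343 FPKM in CL5, 377 in CL6 and 246 in CL7, and 461 in FL2, 294 in FL5 and 837 in FL12. FL12 and FL2 exceeded every CL rat and FL5 did not. The log2 fold changes were -0.17 for Hsd3b7 (95% interval -0.85 to 0.51, adjusted p = 0.706) and 0.61 for Akr1d1 (95% interval -0.24 to 1.46, adjusted p = 0.272), neither past the test of limma, and that of Hsd3b7 turned to 0.16 without CL6. That of Akr1d1 was 0.22 without FL12, 0.97 without FL5 and 0.39 under median scaling.

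Amacr turns the side chain into the form that peroxisomes can shorten, and Slc27a5 and Baat carry out conjugation, the first by activating the acid with coenzyme A and the second by joining it to taurine or glycine. Amacr (ENSRNOG00000018662, chromosome 2) ranged from 51.5 to 97.1 FPKM in the CL rats and from 75.6 to 98.6 FPKM in the FL rats, with a log2 fold change of 0.24 (95% interval -0.29 to 0.77, adjusted p = 0.477 from limma) that was 0.46 without CL5, 0.0032 without CL6, 0.14 without FL5 and 0.018 under median scaling. Slc27a5 (ENSRNOG00000019626, chromosome 1) read 120 FPKM in CL5, 54.0 in CL6 and 55.0 in CL7, and 113 in FL2, 77.4 in FL5 and 81.9 in FL12. CL5 was the highest of the 6 rats and the other CL rats were the lowest, so the groups overlapped, and the log2 fold change was 0.34 (95% interval -0.38 to 1.06, adjusted p = 0.467 from limma). It was 0.72 without CL5 (adjusted p = 0.0633, in a range of 0.0633 to 0.86 over the alternatives), 0.14 without CL6, 0.15 without CL7, 0.17 without FL2 and 0.11 under median scaling.

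Baat (ENSRNOG00000007395, chromosome 5) read 409 FPKM in CL5, 317 in CL6 and 401 in CL7, and 270 in FL2, 202 in FL5 and 219 in FL12. The highest FL rat stood below the lowest CL rat. The mean was 376 ± 50.7 FPKM for CL and 230 ± 35.1 FPKM for FL (SD, n = 3), and Baat fell by 0.71 on the log2 scale (standard error 0.19, 95% interval -1.14 to -0.28, adjusted p = 0.0365 from limma), to 0.613 of the CL level, which is short of the limit of 2-fold. Relative to the median of all genes tested the difference was -0.996. Its adjusted p was under 0.05 in 8 of 15 alternatives, with a range of 0.0167 to 0.125. It was 0.0703 without a filter on low values, 0.0509 after quantile normalization, 0.104 without CL5, 0.0573 without CL6, 0.125 without CL7, 0.110 without FL5 and 0.0939 without FL12.

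Nr0b2 (ENSRNOG00000007229, chromosome 5) encodes SHP, which represses Cyp7a1 and Cyp8b1. It read 9.19 FPKM in CL5, 2.51 in CL6 and 1.46 in CL7, and 12.9 in FL2, 20.6 in FL5 and 9.20 in FL12. The groups were apart by no more than the last decimal of the table, between CL5 and FL12, and CL5 stood well above the other CL rats. The log2 fold change of 2.02 (standard error 0.60, 95% interval 0.63 to 3.40) was numerically the largest of the 10 in this fit and just missed the threshold (adjusted p = 0.0519 from limma). That of Cyp7a1 was larger with a pseudocount of 1, after quantile normalization, without CL7 and without FL5. The adjusted p of Nr0b2 ran from 0.0138 to 0.159 over the alternatives, and it passed with a mean FPKM of at least 1 as the filter (0.0457), with scaling to hepatocyte markers (0.0382) and without CL5 (0.0138). Cyp7a1 and the gene of its repressor thus had their higher group means in the same livers, though FL12 held the most Cyp7a1 and the least Nr0b2 of the FL rats.

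**Figure D2:**
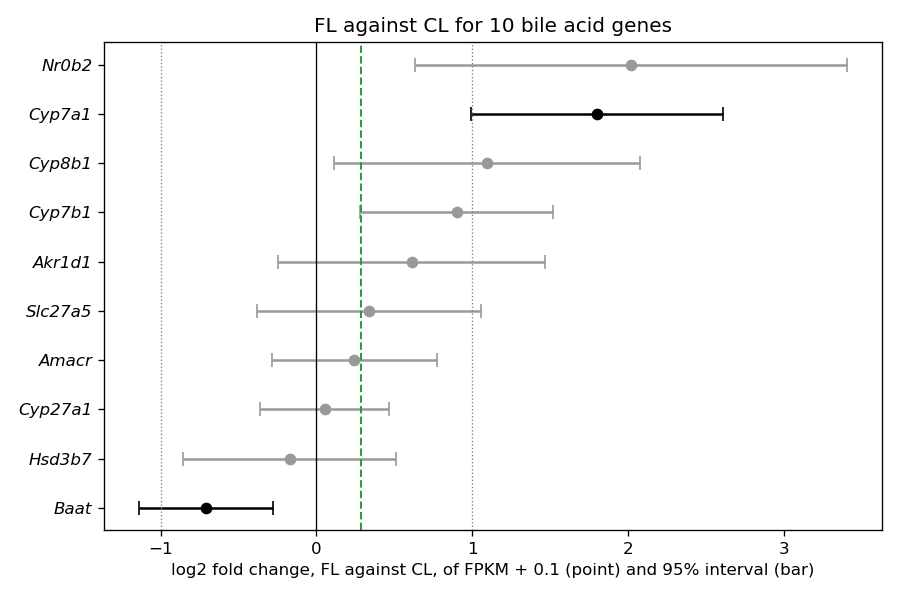
Log2 fold change of FPKM + 0.1 between the FL and CL groups (horizontal axis; point) with its 95% interval from limma (bar), for the 10 genes. Black marks an adjusted p under 0.05, dotted lines mark a 2-fold change and the dashed green line marks the median of all genes tested, 0.29. Cyp7a1 at 1.80 and Baat at -0.71 are in black.

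Some of the differences between rats ran through several of the genes. Of the CL rats, CL5 had the highest value for 8 of the 10 genes, whereas CL6 had the lowest value for 6 of them. CL5 was also the deepest library, and the part of depth in its values was not tested. Among the FL rats the highest value was in FL5 for 5 genes, in FL12 for 3 and in FL2 for 2, and the lowest value was likewise in FL5 for 5, in FL12 for 3 and in FL2 for 2. The highest CL rat exceeded the lowest 6.29-fold for Nr0b2 and 1.29-fold for Baat, and within the FL group the span was 3.31-fold for Cyp8b1 and 1.30-fold for Amacr.

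In the CL group Baat had the highest mean level (376 FPKM), followed by Akr1d1 (322), Cyp27a1 (109), Cyp8b1 (94.1), Slc27a5 (76.2), Amacr (74.2), Hsd3b7 (42.4), Cyp7a1 (35.8), Nr0b2 (4.39) and Cyp7b1 (1.50). Neighbours in this order overlapped between rats except Akr1d1 with Cyp27a1, and Cyp7a1 with Nr0b2. In the FL group the order was Akr1d1 (531 FPKM), Baat (230), Cyp8b1 (225), Cyp7a1 (129), Cyp27a1 (113), Slc27a5 (90.9), Amacr (85.5), Hsd3b7 (36.1), Nr0b2 (14.2) and Cyp7b1 (2.97). There Akr1d1 stood clear of Baat, Amacr of Hsd3b7, Hsd3b7 of Nr0b2 and Nr0b2 of Cyp7b1, and the neighbours in between overlapped. Among all 19616 genes, Cyp7a1 ranked 837 by its mean in the CL group and 238 in the FL group, and Baat ranked 88 and 137.

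Ratios between genes within a rat do not depend on the scaling between rats, and 6 were compared with exact two-sided permutation tests, which cannot go below p = 0.1 with 3 rats against 3. The ratio of Cyp27a1 to Cyp7a1, the openings of the alternative and the classic route, was 2.59 in CL5, 3.51 in CL6 and 3.38 in CL7, and 1.17 in FL2, 1.07 in FL5 and 0.647 in FL12. Each CL liver thus held more Cyp27a1 than Cyp7a1, the FL livers were lower without overlap, and in FL12 Cyp7a1 was the more abundant (log2 difference -1.75, exact p = 0.1, adjusted over 6 ratios 0.15). The ratio of Cyp7b1 to Cyp27a1 was 0.0141 to 0.0157 in the CL rats and 0.0176 to 0.0379 in the FL rats, again without overlap (log2 difference 0.85, exact p = 0.1, adjusted 0.15). That of Cyp7b1 to Cyp7a1 overlapped, at 0.0365 to 0.0532 in the CL rats and 0.0179 to 0.0407 in the FL rats (log2 difference -0.90, exact p = 0.2, adjusted 0.24).

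The ratio of Cyp8b1 to Cyp7a1 was 2.08 in CL5, 3.78 in CL6 and 2.49 in CL7, and 2.87 in FL2, 3.42 in FL5 and 0.458 in FL12. FL2 and FL5 were within the CL range and FL12 was below all other rats, so that the log2 difference of -0.71 (exact p = 0.8, adjusted 0.8) turned to 0.22 without FL12. The ratio of Baat to Slc27a5, the conjugating enzyme over the activating enzyme, was 3.41 in CL5, 5.86 in CL6 and 7.28 in CL7, and 2.38 in FL2, 2.61 in FL5 and 2.67 in FL12. All FL rats were below all CL rats and close to each other (log2 difference -1.04, exact p = 0.1, adjusted 0.15). The ratio of Nr0b2 to the gene of its activator, Nr1h4, was 0.168 in CL5, 0.0399 in CL6 and 0.0317 in CL7, and 0.201 in FL2, 0.390 in FL5 and 0.169 in FL12 (log2 difference 1.99, exact p = 0.1, adjusted 0.15), with CL5 next to FL12.

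**Figure D3:**
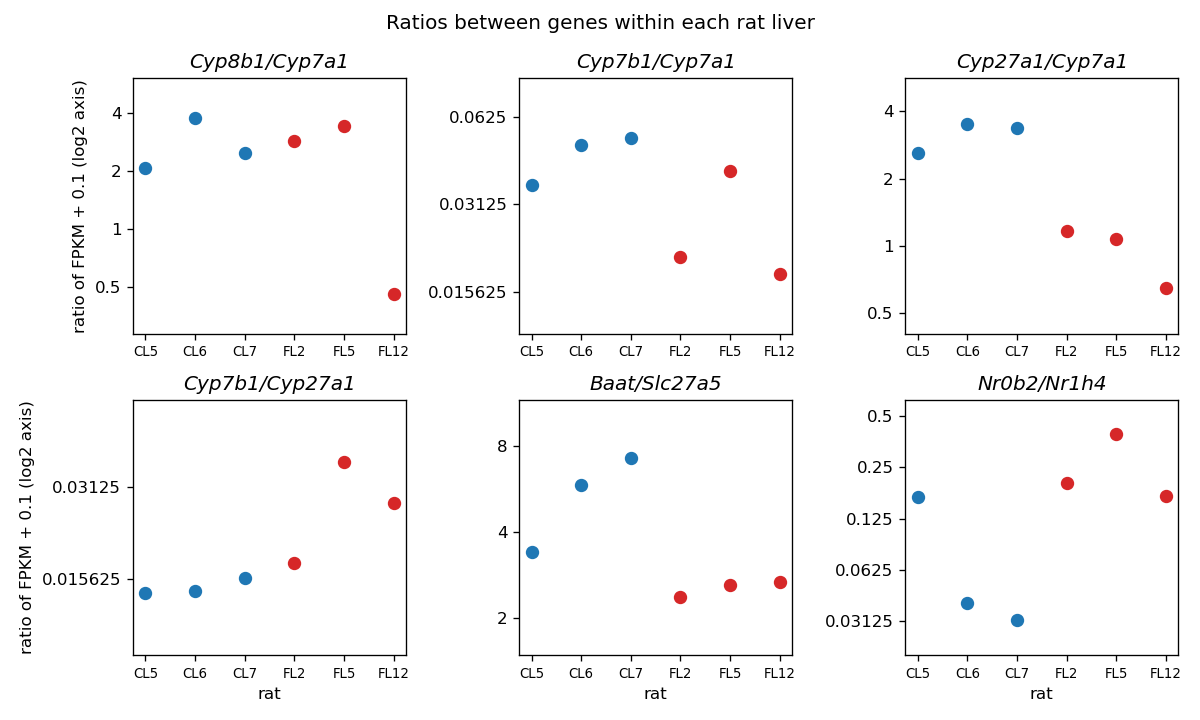
Ratio of FPKM + 0.1 between the genes named above each panel (vertical axis, log2 scale) within each CL rat (blue) and FL rat (red). For Cyp27a1 to Cyp7a1 the FL rats lie between 0.647 and 1.17 and the CL rats between 2.59 and 3.51, and for Cyp8b1 to Cyp7a1 FL12 stands apart at 0.458.

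Of 16 further enzymes and carriers of bile acid synthesis, 15 were tested and 0 were called in either direction (limma), where 9.29% of all genes were upregulated and 0.935% downregulated. At an unadjusted p under 0.05 there were 1 higher (31.5% of all genes) and 1 lower (4.04% of all genes). The median log2 fold change of the 15 was -0.07, with -0.30 under median scaling and -0.20 after quantile normalization. Por, the reductase that passes electrons to microsomal cytochromes P450 such as Cyp7a1, had an adjusted p under 0.05 short of 2-fold and was picked out after its values were seen. It read 41.4 FPKM in CL5, 50.9 in CL6 and 57.3 in CL7, and 73.6 in FL2, 84.9 in FL5 and 113 in FL12, without overlap and with a log2 fold change of 0.85 (adjusted p = 0.0221 from limma). The adjusted p of Por ran from 0.0147 to 0.0714 and was under 0.05 in 8 of 15 alternatives, with 0.0714 without CL5, 0.062 without CL6, 0.062 without FL5, 0.0516 without FL12, 0.0678 under median scaling, 0.0619 after quantile normalization and 0.0677 without a filter.

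Of 27 genes of feedback and transcriptional control, 23 were tested. By limma 0 were upregulated (9.29% of all genes) and 0 downregulated (0.935% of all genes). At an unadjusted p under 0.05 there were 5 higher (31.5% of all genes) and 3 lower (4.04% of all genes). The median log2 fold change of the 23 was 0.20, and -0.02 under median scaling. The FXR gene Nr1h4 read 55.2 FPKM in CL5, 65.3 in CL6 and 49.2 in CL7, and 64.7 in FL2, 52.9 in FL5 and 54.9 in FL12, so the groups lay over each other (log2 fold change 0.03, 95% interval -0.31 to 0.36, adjusted p = 0.906). The receptor of the ileal hormone, Fgfr4, had a log2 fold change of 0.23 (adjusted p = 0.191) and its partner Klb one of 0.22 (adjusted p = 0.439). For Fgfr4 this was 0.0074 under median scaling and 0.0019 after quantile normalization, and for Klb -0.0022 and 0.049. The log2 fold change of Klb was 0.43 without CL5, 0.13 without CL6, 0.11 without CL7 and 0.13 without FL12. Nr5a2, which encodes LRH-1, an activator of Cyp7a1 and Cyp8b1 that SHP blocks, had 0.12 (adjusted p = 0.455), and Hnf4a, a hepatocyte factor that drives the same genes, had -0.21 (adjusted p = 0.239), or -0.43 under median scaling. Without CL5 the log2 fold change of Nr5a2 was 0.19. In this list, Rora, a nuclear receptor whose target genes follow a daily rhythm, had an adjusted p under 0.05 short of 2-fold and was picked out after its values were seen. Rora read 12.8 FPKM in CL5, 14.8 in CL6 and 14.1 in CL7, and 7.82 in FL2, 9.97 in FL5 and 9.87 in FL12 (log2 fold change -0.59, adjusted p = 0.0223), with every FL rat below every CL rat. Its adjusted p ran from 0.00811 to 0.0813 and was under 0.05 in 10 of 15 alternatives, with 0.0762 without CL6, 0.0813 without CL7, 0.0508 without FL5, 0.0713 with scaling to hepatocyte markers and 0.052 without a trend. The hormone genes Fgf15 and Fgf19 were not analysed here, and of 5 markers of ileal enterocytes only Slc10a2 was tested, at 0.45 to 1.10 FPKM and with a log2 fold change of -0.01 (adjusted p = 0.98).

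Bile acid synthesis follows a daily rhythm in rodents, and Cyp7a1 is a target of the clock-controlled factor Dbp. Of 15 rhythmic regulators, 9 were upregulated (9.29% of all genes) and 3 downregulated (0.935% of all genes), and their median log2 fold change was 1.27. Under median scaling and after quantile normalization 7 were upregulated, and with scaling to hepatocyte markers 2 were downregulated. The 3 downregulated, named besides the 4 largest changes, were Arntl (-1.72, adjusted p = 0.00164), Cry1 (-1.52, adjusted p = 0.00518) and Nfil3 (-1.01, adjusted p = 0.0249 from limma). The adjusted p of Nfil3 ran from 0.00475 to 0.0877. Dbp read 0.46 FPKM in CL5, 0.91 in CL6 and 0.81 in CL7, and 25.6 in FL2, 27.1 in FL5 and 31.8 in FL12, with the groups far apart (log2 fold change 5.13, adjusted p = 1.26e-04 from limma). Per3 rose by 3.89 (adjusted p = 9.07e-04), or by 2.50 with a pseudocount of 1. The count of 9 includes Ciart and Bhlhe41, which passed the filter only through the FL group, so that a difference was built into their entry. Ciart read 0.03 FPKM in CL5 and 0.05 in CL7, was listed at 0 in CL6, and read 0.73 in FL2, 1.16 in FL5 and 0.57 in FL12. Bhlhe41 read 0.02 FPKM in CL5 and 0.04 in CL7, was listed at 0 in CL6, and read 0.53 in FL2, 0.94 in FL5 and 0.47 in FL12. The CL values are below the pseudocount, and the log2 fold change ran from 0.81 with a pseudocount of 1 to 4.78 with 0.01 for Ciart, and from 0.68 to 4.67 for Bhlhe41, so the size of their change is not given by these values. The hour at which the rats were killed is not given in the sources used here, and the part of the rhythm in the difference of Cyp7a1 was not tested.

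Among 15 transporters of bile acids and sterols, 12 were tested, of which 2 were upregulated (9.29% of all genes) and 2 downregulated (0.935% of all genes). The median log2 fold change of the 12 was -0.22. Under median scaling the median was -0.44 with 1 upregulated, and after quantile normalization -0.26 with 0 upregulated. Abcg5 and Abcg8, the paired transporters that move cholesterol into bile, fell together. Abcg8 read 3.61 FPKM in CL5, 2.56 in CL6 and 1.41 in CL7, and 0.09 in FL2, 0.33 in FL5 and 0.29 in FL12 (log2 fold change -2.96, adjusted p = 0.00544 from limma). The FL2 value is below the pseudocount, and the log2 fold change of Abcg8 ran from -1.47 with a pseudocount of 1 to -3.45 with 0.01. Abcg5 read 6.70 FPKM in CL5, 6.32 in CL6 and 4.02 in CL7, and 0.50 in FL2, 1.17 in FL5 and 1.67 in FL12 (log2 fold change -2.35, adjusted p = 0.00837). No FL rat reached the lowest CL rat for either gene. Abcc3, which exports bile acids to the blood, read 2.13 FPKM in CL5, 2.83 in CL6 and 1.06 in CL7, and 4.01 in FL2, 10.2 in FL5 and 18.4 in FL12 (log2 fold change 2.23, adjusted p = 0.028). Abcc4, another exporter on the same side of the cell, had a log2 fold change of 1.24 (adjusted p = 0.0292). The adjusted p of Abcc3 ran from 0.00744 to 0.0988 and that of Abcc4 from 0.00989 to 0.105 over the alternatives (with 0.0685 for Abcc3 and 0.0684 for Abcc4 without CL5, 0.0987 and 0.105 without CL7, 0.0909 and 0.0845 without FL5, 0.0703 and 0.0625 without FL12, 0.0593 for Abcc4 without CL6, and 0.0673 and 0.0953 after quantile normalization). Their calls were lost in 7 and 10 of 15 alternatives. The uptake carrier Slc10a1 and the export pump Abcb11, which set the flow of conjugated bile acids through the hepatocyte, had log2 fold changes of -0.05 (adjusted p = 0.851) and -0.30 (adjusted p = 0.178), or -0.27 and -0.52 under median scaling.

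Of 10 enzymes that hydroxylate or sulfate bile acids, 6 were in the table in 7 rows. Of these rows 0 were upregulated (9.29% of all genes) and 2 downregulated (0.935% of all genes). Cyp3a18 read 324 FPKM in CL5, 297 in CL6 and 265 in CL7, and 69.7 in FL2, 176 in FL5 and 52.3 in FL12 (log2 fold change -1.77, adjusted p = 0.0217), a call that was lost in 5 of 15 alternatives, with adjusted p-values of 0.0687 without CL5, 0.063 without CL6, 0.0648 without CL7, 0.0559 without FL12 and 0.0821 without a filter. Of the rows named Cyp3a9, that of ENSRNOG00000046643 fell by 4.22 on the log2 scale (adjusted p = 0.00165 from limma), and the other row had 0.37 (adjusted p = 0.162). The genes of the Cyp3a family are alike in sequence, so reads may be shared between them, and these values are uncertain to that extent.

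Hepatocytes near the central vein hold most Cyp7a1, and those near the portal vein take up most of the returning bile acids. Of 12 pericentral genes, 3 were upregulated (9.29% of all genes) and 0 downregulated (0.935% of all genes). The median log2 fold change of the 12 was 0.63 (0.41 under median scaling, with 7 above 0 and 5 below). At an unadjusted p under 0.05 there were 5 higher (31.5% of all genes) and 1, Oat, lower (4.04% of all genes). Oat had -0.98 (adjusted p = 0.0857 from limma) and was downregulated only without CL6, at -1.33 with adjusted p = 0.0378. Of the 12, 9 fold changes were above 0 and 3 below, with Slc13a3 at -0.28 and Cyp1a2 at -0.24 besides Oat, all 3 named after their values were seen. The 9 and the median include Lgr5 (mean 0.05 FPKM in CL and 0.233 in FL). Lgr5 passed the filter only through the FL group, so that a difference was built into its entry. The signs of Slc13a3 and Cyp1a2 rest on FL5, without which they were 0.82 (adjusted p = 0.0457) and 0.13 (adjusted p = 0.749). Those upregulated were Rhbg (2.13, adjusted p = 0.0146), Rnf43 (1.42, adjusted p = 0.00509) and Tbx3 (1.32, adjusted p = 0.0176). Without the limit on the fold change 5 passed upwards (16.9% of all genes) and 0 downwards (1.94% of all genes). The further genes were Axin2 (0.86, adjusted p = 0.0126 from limma) and Glul (0.73, adjusted p = 0.0344), also named after their values were seen. Over the alternatives their adjusted p ran from 0.00889 to 0.0627 and from 0.0309 to 0.126. The call of Rhbg was lost in 3 of 15 alternatives (0.0551 without FL5, 0.0505 without FL12 and 0.0648 without a filter), and that of Tbx3 in 5 (0.0506 without CL6, 0.0712 without CL7, 0.0687 without FL5, 0.0628 after quantile normalization and 0.0685 without a filter). Of 13 rows of 12 periportal genes, 0 were upregulated (9.29% of all genes) and 0 downregulated (0.935% of all genes) by limma. At an unadjusted p under 0.05 there were 0 higher (31.5% of all genes) and 2 lower (4.04% of all genes). The median log2 fold change of the 13 rows was -0.05, or -0.28 under median scaling and -0.16 after quantile normalization. Hal and Cyp2f4, picked out after their values were seen, were the 2 that were lower, with log2 fold changes of -0.96 (adjusted p = 0.0347) and -0.73 (adjusted p = 0.00689 from limma), both short of 2-fold. The adjusted p of Cyp2f4 ran from 0.00598 to 0.0358 over 15 alternatives. That of Hal ran from 0.00888 to 0.101 and was under 0.05 in 8 of them, and Hal was past 2-fold as well under median scaling (-1.19), after quantile normalization (-1.07) and without FL5 (-1.28).

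Many hepatic enzymes are expressed differently in male and female rats, and both groups here were male. Of 6 rows of male-biased liver genes, 4 were downregulated (0.935% of all genes), and of 4 female-biased genes tested 1 was upregulated (9.29% of all genes). Mup5 fell by 8.93 on the log2 scale (adjusted p = 8.32e-04), Cyp2c11 by 5.02 (adjusted p = 0.00981), Cyp4a2 by 1.96 (adjusted p = 0.00437) and Cyp2c13 by 1.23 (adjusted p = 0.0492), the last 2 each in 1 of 2 rows with that name. Cyp2c12, from the female-biased list, rose by 3.65 (adjusted p = 0.00166 from limma). Members of the Cyp2c family are also alike in sequence. The call of Cyp2c11 was lost without a filter (adjusted p = 0.0535, the highest of its alternatives, in which the lowest was 0.00214). That of Cyp2c13 was lost in 11 of 15 alternatives, whose adjusted p ran from 0.027 to 0.221, each rat left out except FL5 among them (0.123 without CL5, 0.119 without CL6, 0.131 without CL7, 0.114 without FL12, and a log2 fold change short of 2-fold, -0.87, without FL2).

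The samples were whole liver, so fewer cells of a type and less RNA per cell cannot be told apart for any of these genes. Of 12 hepatocyte markers, 0 were called in either direction (limma), where 9.29% of all genes were upregulated and 0.935% downregulated. At an unadjusted p under 0.05 there were 1 higher (31.5% of all genes) and 0 lower (4.04% of all genes). The groups did not overlap for 4 markers that were lower in the FL rats (4.78% of all genes). They were also apart for 2 that were higher (35.7% of all genes). The median log2 fold change of the 12 markers was -0.01, with -0.24 under median scaling and 0.23 after quantile normalization. Summed, they held 53707 FPKM in CL5, 50770 in CL6 and 51546 in CL7, and 47135 in FL2, 45790 in FL5 and 43978 in FL12, and without albumin (Alb), the most abundant, 20315, 19339 and 19554 against 22986, 20738 and 18769 FPKM. None was listed at 0 in any rat. For Alb the mean was 32270 ± 1010 FPKM in CL and 24800 ± 572 FPKM in FL (SD, n = 3). Its log2 fold change of -0.38 had a limma standard error of 0.98, much wider than this spread. The absence of a call therefore does not show an unchanged level. Of 10 markers of stellate cells or myofibroblasts, 9 were tested and 6 were upregulated (9.29% of all genes). Their sum was 82.2 FPKM in CL5, 86.0 in CL6 and 80.2 in CL7, and 203 in FL2, 545 in FL5 and 498 in FL12, with Col3a1 the most abundant and none at 0. Of 10 macrophage markers, 6 were upregulated (9.29% of all genes). The sums of the 10 were 134 FPKM in CL5, 125 in CL6 and 127 in CL7, and 371 in FL2, 444 in FL5 and 281 in FL12, and none was at 0. The 6 include Trem2, which passed the filter only through the FL group, so that a difference was built into its entry. Gpnmb was the most abundant by its mean over the 6 rats, although Clec4f exceeded it in each CL rat and in FL2. Among markers of cholangiocytes 1 of 7 tested was upregulated, of endothelial cells 1 of 7, of lymphocytes 1 of 6 and of cycling cells 2 of 6 (9.29% of all genes). In these lists 0 were downregulated (0.935% of all genes). Under median scaling and after quantile normalization the upregulated endothelial and lymphocyte markers numbered 0, and those of cycling cells 1 and 0. The part of these cells in the levels of the bile acid genes was not tested.

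Promoter sequence from RefSeq (build GRCr8) was matched by symbol for 7 of the 10 genes, and not for Cyp7a1, Cyp7b1 and Akr1d1. In the 250 bases before the start of each gene, 7 short motifs were searched on both strands. The letters CAAGGNCA, to which LRH-1 binds, were found before Cyp8b1, Nr0b2 and Cyp27a1, and in 5.58% of 33469 promoters of the same length. The letters AGGTCA, the shared hexamer of nuclear receptor sites, which can lie within CAAGGNCA where N is T, were found before Cyp27a1 and Amacr (14.1% of promoters). The HNF4 letters CAAAGTCCA were found before Baat (0.338%), the D-box TTANGTAA, bound by Dbp and its relatives, before Slc27a5 (2.04%), and the E-box CACGTG before Nr0b2 (5.59%). The HNF1 letters GTTAATNA (2.22%) and the C/EBP letters TTGCNNAA (9.22%) were in none of the 7. A match describes the sequence and is not a measured binding site.

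The promoters of Cyp8b1, Nr0b2 and Baat are shown because the first pair share the LRH-1 letters, and because only Baat was lower in the FL group without overlap. They lie at chr8:130457593-130457842 on the minus strand, at chr5:151062910-151063159 on the plus strand and at chr5:68656138-68656387 on the minus strand of GRCr8. Each runs 5′ to 3′ up to the base before the start of the gene. Capitals mark CAAGGNCA in Cyp8b1, CAAGGNCA and the overlapping E-box in Nr0b2, and CAAAGTCCA in Baat.
Cyp8b1: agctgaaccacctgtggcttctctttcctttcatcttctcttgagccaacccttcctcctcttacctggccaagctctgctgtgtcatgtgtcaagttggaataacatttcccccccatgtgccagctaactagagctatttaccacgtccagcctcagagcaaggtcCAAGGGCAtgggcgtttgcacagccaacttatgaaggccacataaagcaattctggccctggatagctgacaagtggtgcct
Nr0b2: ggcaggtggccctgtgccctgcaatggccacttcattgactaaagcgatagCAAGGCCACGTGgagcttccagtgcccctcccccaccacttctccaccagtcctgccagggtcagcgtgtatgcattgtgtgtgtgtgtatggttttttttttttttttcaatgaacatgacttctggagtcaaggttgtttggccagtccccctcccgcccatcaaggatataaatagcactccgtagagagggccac
Baat: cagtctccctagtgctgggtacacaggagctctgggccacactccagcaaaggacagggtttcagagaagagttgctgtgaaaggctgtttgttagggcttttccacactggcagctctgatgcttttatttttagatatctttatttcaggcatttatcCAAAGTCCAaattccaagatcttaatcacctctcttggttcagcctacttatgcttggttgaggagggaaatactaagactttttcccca
The LRH-1 letters begin 82 bases before the start of Cyp8b1 and 199 bases before that of Nr0b2, and the HNF4 letters begin 90 bases before the start of Baat. The promoter of Cyp27a1 is not shown, although it holds the LRH-1 letters as well, 236 bases before the start on the other strand. The log2 fold change of Cyp27a1 was 0.05 (adjusted p = 0.853 from limma).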

How the data were processed

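RNA of 6 rat livers was sequenced after removal of ribosomal RNA. The authors cleaned the reads (FASTX-Toolkit), mapped them (TopHat2) and deposited FPKM of uniquely mapped fragments per gene, with 2 decimals. GRCh38 is named as the genome, although the identifiers are those of rat genes in Ensembl. A further 2 columns of values bear no sample's name and were left out. Pairs of libraries shared 0.866% to 2.54% identical values above 0.

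FL was set against CL with limma (prior variance as a trend of mean level) on log2(FPKM + 0.1), and Benjamini-Hochberg adjustment covered the 14864 genes averaging 0.1 FPKM or more. This scale understates the change of low genes. The study's thresholds were kept. Ratios had exact permutation tests. Members and lists were chosen with earlier results of these data known. Genes named were the members, called genes of each list other than cell markers (at most 4, by size of change) and Nr1h4, Nr5a2, Hnf4a, Fgfr4, Klb, Slc10a1 and Abcb11, with exceptions stated. Alternatives were other pseudocounts (1, 0.01, or none for ratios), no filter, a filter at 1 FPKM, median scaling, quantile normalization, scaling to 12 hepatocyte markers, no trend, a robust prior, no fold limit, and each rat left out. The procedure was tested on simulated data. Software was R 4.3.3, limma 3.58.1, Python 3.11.15, numpy 2.4.6, pandas 2.3.3, scipy 1.17.1, matplotlib 3.10.9.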

Additional observations from a re-analysis of the deposited data

How the results depend on the processing

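The count of upregulated members was 1 and changed to 0 without a filter on low values and to 2 with a mean FPKM of at least 1 or with scaling to hepatocyte markers, to 0 without CL7 and to 2 without CL5, FL2 or FL12. Without a limit on the fold change 1 member was downregulated. Over all genes, 1381 were upregulated and 139 downregulated (90.9% of calls upwards). With a pseudocount of 1 the counts were 462 and 72, without a filter 846 and 78, and after quantile normalization 453 and 231 (66.2% upwards). Upregulated genes numbered 854 of 10535 tested with a mean FPKM of at least 1 and 824 of 14818 tested under median scaling. Without a limit on the fold change there were 2518 and 288. With a rat left out the counts ran from 740 (without CL7; 745 without FL5) to 1831 and from 81 (without CL6 or CL7) to 160. Fewer samples enter the leave-outs. More genes are tested without a filter and fewer with a mean FPKM of at least 1, and elsewhere the cause was not tested. The median log2 fold change of all genes was 0.29, 0.08 under median scaling and -0.04 after quantile normalization. Among the genes run through the alternatives, these signs turned. Under median scaling they were those of Cyp27a1 (-0.17), Nr1h4 (-0.20), Nr5a2 (-0.10) and Klb (-0.0022), and after quantile normalization Nr1h4 (-0.024), Nr5a2 (-0.092) and Slc10a1 (0.0056). With a rat left out, Cyp27a1 ran from -0.058 to 0.20, Hsd3b7 from -0.44 to 0.16, Nr1h4 from -0.067 to 0.14, Slc10a1 from -0.18 to 0.030, Slc13a3 from -0.86 to 0.82 (adjusted p = 0.0457, without FL5), Cyp1a2 from -0.61 to 0.13 and the log2 ratio of Cyp8b1 to Cyp7a1 from -1.23 to 0.22. The other 5 ratios kept their direction in the alternatives run. The CL and FL rats were different animals, so no paired analysis was made, and the number 5 in both groups does not mark a pair. The reads of each rat are not given in the sources used here, so no counting error was attached to low genes such as Cyp7b1.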
